A study of Mus musculus with 8 samples.

Results

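The regions described here are stretches of the mouse genome where both Setd2 knockout libraries carried a peak of histone H3 trimethylated at lysine 36 (H3K36me3) and neither control library did. They are called KO-only regions below. A region was the shared part of a peak of each knockout library (KO), at least 200 bp wide, on chromosomes 1 to 19, that shared no base with a peak of either control library (WT). Of 17021 such shared parts of peaks, 9579 (56.3%) met the rule, beside 439892 merged regions of at least 200 bp under a peak of any of the 4 libraries. The regions were chosen by the presence of peaks in KO and their absence in WT, so their number, widths, scores and distances to WT peaks are given as a description, without a test.

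The peaks came from chromatin immunoprecipitation and sequencing (ChIP-seq) of bone marrow stromal cells, the adherent marrow cells that include progenitors of bone, fat and cartilage. All cells came from C57BL/6J mice homozygous for a floxed Setd2 allele (Setd2 fl/fl), at passage 2, and all were infected with a lentivirus and kept in puromycin at 2 µg/ml for 4 days. The lentivirus expressed GFP in WT and Cre recombinase in KO, so WT cells carry the intact floxed alleles. For WT as for KO there were 2 immunoprecipitations with the H3K36me3 antibody, 1 with normal IgG and 1 Input, which is chromatin that was not precipitated. The single Input served both H3K36me3 libraries of its genotype. Separate cultures are not named for replicates 1 and 2 in the labels, and their spread may be technical. Cre enters only infected cells, and chromatin of cells that escaped deletion cannot be told apart from the rest in these lists.

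Setd2 is the methyltransferase that travels with elongating RNA polymerase II and trimethylates H3K36 along the bodies of transcribed genes. The mark is thus usually broad, lies inside genes and is scarce at gene starts and between genes. In its absence other enzymes of the family place the lower methylation states of the same residue.

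On the autosomes WT replicates 1 and 2 had 236624 and 240335 peaks, and KO replicates 1 and 2 had 116865 and 151836. Sequencing depth is unknown. Setd2 itself was covered by WT peaks over 66.4% and 60.5% of its span and by KO peaks over 0.690% and 1.70%, and it held no KO-only region. The 26 stromal markers had a median coverage of 39.4% and 33.1% in WT against Input and 10.7% and 10.5% against IgG, with Vim at 82.2% and 92.2% against Input and at 0 against IgG, and with Thy1 at 0 in every list. Pdgfra had 49.6% and 53.7% against Input and Prrx1 28.7% and 22.2%. Of 25 blood cell markers, 13 and 11 were at 0 in WT against Input, Cd3e among them. Against IgG 13 and 12 of the 25 were at 0 in WT. Lyz2 had 74.9% and 87.6% against Input and 0 against IgG. Ptprc had 15.01% and 14.2% against Input and 11.4% and 9.61% against IgG, and Cd68 had 37.0% and 71.3% against each control. The 15 endothelial markers had medians of 0.700% and 1.28% in WT against Input, and the highest was Egfl7. The part that a mixture of cells plays in the results was not tested.

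A few KO-only regions lay over gene starts, and their sequences come first. RefSeq promoter windows (GRCm38.p6) run from 250 bases before to 50 after a gene start. Of 31396 windows on the autosomes, 78 held a base of a KO-only region, or 0.248%. They belong to 75 genes, and 34 are of protein-coding genes. The windows of 8 protein-coding genes whose symbols are not provisional lay wholly under a KO-only region. Their 250 bases before the start are printed to show how few CG dinucleotides, the sites of DNA methylation in mammals, such starts hold. The bases run 5′ to 3′ on the strand of the gene, and capitals mark CG.

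Egfl7: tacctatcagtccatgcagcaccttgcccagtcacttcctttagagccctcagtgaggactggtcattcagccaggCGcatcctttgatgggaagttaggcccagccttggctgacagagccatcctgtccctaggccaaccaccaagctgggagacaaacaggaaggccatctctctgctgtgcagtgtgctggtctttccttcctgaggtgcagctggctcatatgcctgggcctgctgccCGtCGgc
H2ac1: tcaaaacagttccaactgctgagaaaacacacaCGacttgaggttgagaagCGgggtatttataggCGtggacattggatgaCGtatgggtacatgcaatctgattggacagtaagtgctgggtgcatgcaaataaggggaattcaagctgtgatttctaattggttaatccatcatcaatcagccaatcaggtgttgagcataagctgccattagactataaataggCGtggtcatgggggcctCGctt
H2bc1: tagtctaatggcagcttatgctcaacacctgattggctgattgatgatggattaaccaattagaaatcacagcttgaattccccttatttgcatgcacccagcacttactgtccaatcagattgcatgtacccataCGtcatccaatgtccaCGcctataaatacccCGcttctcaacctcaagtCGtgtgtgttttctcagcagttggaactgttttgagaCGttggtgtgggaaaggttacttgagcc
Nxnl1: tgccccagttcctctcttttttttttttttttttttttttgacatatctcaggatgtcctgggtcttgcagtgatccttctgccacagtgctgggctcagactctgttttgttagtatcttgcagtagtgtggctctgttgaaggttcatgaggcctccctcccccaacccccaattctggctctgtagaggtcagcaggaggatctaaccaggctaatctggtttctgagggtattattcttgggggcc
Rtp3: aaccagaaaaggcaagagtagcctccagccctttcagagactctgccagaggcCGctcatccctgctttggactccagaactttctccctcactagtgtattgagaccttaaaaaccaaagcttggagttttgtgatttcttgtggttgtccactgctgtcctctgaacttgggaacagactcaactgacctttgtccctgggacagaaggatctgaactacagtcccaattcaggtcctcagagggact
Spdye4a: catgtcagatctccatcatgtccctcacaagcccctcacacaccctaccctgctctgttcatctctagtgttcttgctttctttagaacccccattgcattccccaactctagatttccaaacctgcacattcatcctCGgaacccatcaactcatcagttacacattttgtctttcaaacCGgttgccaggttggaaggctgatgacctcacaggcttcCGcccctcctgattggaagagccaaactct
Sprr2a2: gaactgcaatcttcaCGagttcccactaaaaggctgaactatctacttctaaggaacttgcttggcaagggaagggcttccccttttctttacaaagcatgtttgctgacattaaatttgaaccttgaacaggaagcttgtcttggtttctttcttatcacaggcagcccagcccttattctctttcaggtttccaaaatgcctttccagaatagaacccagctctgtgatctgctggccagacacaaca
Trim52: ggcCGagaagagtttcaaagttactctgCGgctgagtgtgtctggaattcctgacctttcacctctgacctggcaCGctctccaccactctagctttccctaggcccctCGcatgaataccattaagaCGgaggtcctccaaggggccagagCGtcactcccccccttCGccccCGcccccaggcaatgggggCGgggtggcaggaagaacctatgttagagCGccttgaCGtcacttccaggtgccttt

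The first is the window of Egfl7, a secreted factor of endothelial cells, at chr2:26580833-26581082 on the plus strand, with 3 CG. H2ac1 (chr13:23934187-23934436, plus strand) and H2bc1 (chr13:23934157-23934406, minus strand) are a pair of histone genes that are read away from each other. Their windows overlap, lie under the same KO-only region and hold 6 and 5 CG. Nxnl1 (chr8:71566650-71566899, minus strand), a photoreceptor survival factor, has no CG. Rtp3 (chr9:110989714-110989963, minus strand), a receptor transporter protein, and Sprr2a2 (chr3:92250397-92250646, plus strand), a small proline-rich protein of cornified epithelia, have 1 each. Spdye4a (chr5:143226891-143227140, minus strand) has 3, and Trim52 (chr14:106105948-106106197, plus strand), a tripartite motif gene, has 11.

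The score of each region in each library is the value the authors' peak caller gave to the peak that holds it. Over the Egfl7 start the score was 115 in KO replicate 1 and 62.5 in KO replicate 2, and the region was 394 bp wide and 7298 bp from the nearest WT peak. Over the start shared by H2ac1 and H2bc1 it was 65.5 and 37.7, with the nearest WT peak at 19852 bp. Over the Rtp3 start it was 52.6 and 52.9, and over the Nxnl1 start 48.2 and 45.1. Of these starts, that of Egfl7 has the highest score in both libraries. The 2 scores of Rtp3 and of Nxnl1 were close in value. The lists differ, with median scores of 44.2 in KO replicate 1 and 35.1 in KO replicate 2, so close values are not a like rank. When the same libraries were called against IgG, the starts of Rtp3, Spdye4a and Trim52 were covered in both KO libraries, that of Nxnl1 in KO replicate 1 alone, and those of Egfl7, H2ac1, H2bc1 and Sprr2a2 in neither. No WT list against IgG covered any of these 8 starts.

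The low CG content held for the set as a whole, but by gene type only protein-coding genes had a lower median. The windows under KO-only regions had a median of 3 CG, with 0 to 18, and 6 of 78 (7.69%) had 10 or more. Among all windows the median was 7 and 44.0% had 10 or more, and among windows without any WT peak the median was 8 and 46.2% had 10 or more. The median content of G and C was 48.3% under KO-only regions, beside 53.0% over all windows. Protein-coding genes made up 34 of the 78 windows but 64.0% of all windows. Their windows under KO-only regions had a median of 2 CG, beside 14 in all protein-coding windows, and 5.88% beside 57.9% had 10 or more. The 44 windows of other genes had a median of 4, as did all windows of other genes, and 9.09% beside 19.1% had 10 or more. The feature is not particular to the regions found in both KO libraries. Windows under a WT-free peak of only 1 KO library had a median of 3 CG and 8.50% with 10 or more, and windows under a WT peak had a median of 4 and 14.02%. The letters TATAAA, searched on both strands, were in 16.7% of the windows under KO-only regions and in 13.6% of all windows.

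**Figure D1:**
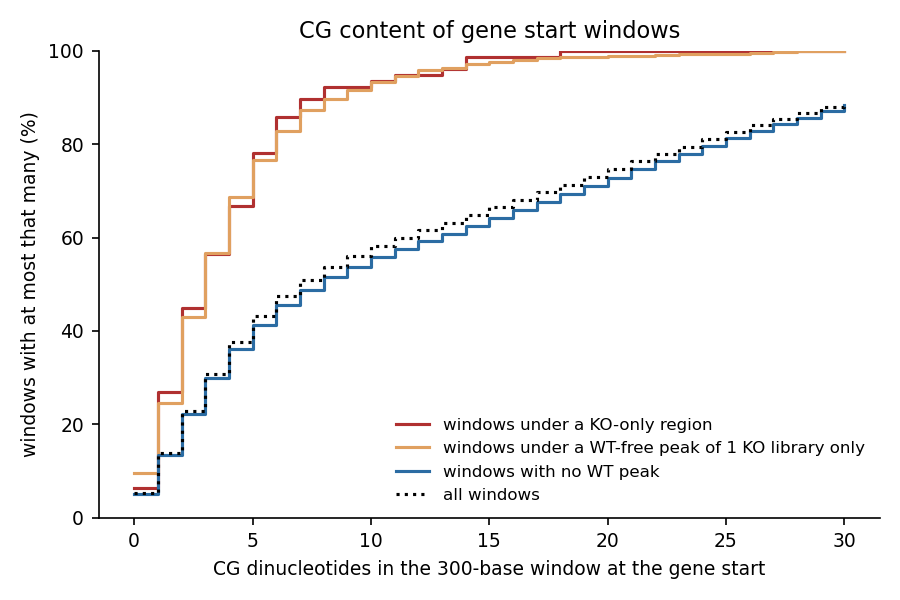
Cumulative share of gene start windows (percent, vertical axis) against the number of CG dinucleotides in their 300 bases (horizontal axis), for windows under KO-only regions (78), under a WT-free peak of only 1 KO library (1259), without a WT peak (29185) and all windows (31396). The curve of the KO-only regions lies on that of the peaks of 1 KO library and left of the other curves: 92.3% of its windows hold fewer than 10 CG.

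Other gene starts were covered in part. Sh2d1b2, an adaptor of natural killer cells, had 296 of its 300 bases covered, with scores of 86.7 and 40.1. The olfactory receptor gene Olfr1415 had 270 bases covered and Trpm8, the cold receptor of sensory neurons, 254. Rtp2, a transporter of odorant receptors, had 228 bases covered, and a start of Igf2, the imprinted insulin-like growth factor, 200. Over Igf2 the scores were 35.4 and 24.99, and the nearest WT peak was 845 bp away. No KO-only region shared a base with any of the 919 autosomal hairpins in the RefSeq table of miRNA sequences, or with any of the 1136 miRNA genes in the RefSeq gene table, which lists more. Those 1136 genes span 0.0938 Mb in all. All WT-free sequence held 4.61 regions per Mb, so a count of 0 there is near the background.

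The regions were narrow and of ordinary score for the lists they came from. Their median width was 412 bp, with quartiles of 314 and 504 bp, and they covered 4.06 Mb in all. KO regions that shared a base with a WT peak, of which there were 7442, were 438 bp wide at the median, and WT regions without a KO peak, 142957 in number, 578 bp. Only 64 KO-only regions were wider than 1 kb and 13 wider than 2 kb, against 26772 and 4950 of those WT regions. The median score was 44.3 in KO replicate 1, where the whole list had 44.2, and 36.1 in KO replicate 2, where the list had 35.1. For the KO regions with a WT peak the medians were 48.5 and 41.3. The scores of the same region in the 2 libraries were weakly related, with a Spearman rho of 0.36 across the 9579 regions, which share the Input library and are not independent.

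The width minimum did not separate regions of unlike score. The 170 regions less than 10 bp above it had median scores of 41.9 and 34.4 in the 2 KO libraries. The 165 intervals up to 10 bp below it, which it left out, had 44.4 and 35.5. In all, 3442 shared WT-free intervals were under 200 bp.

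**Figure D2:**
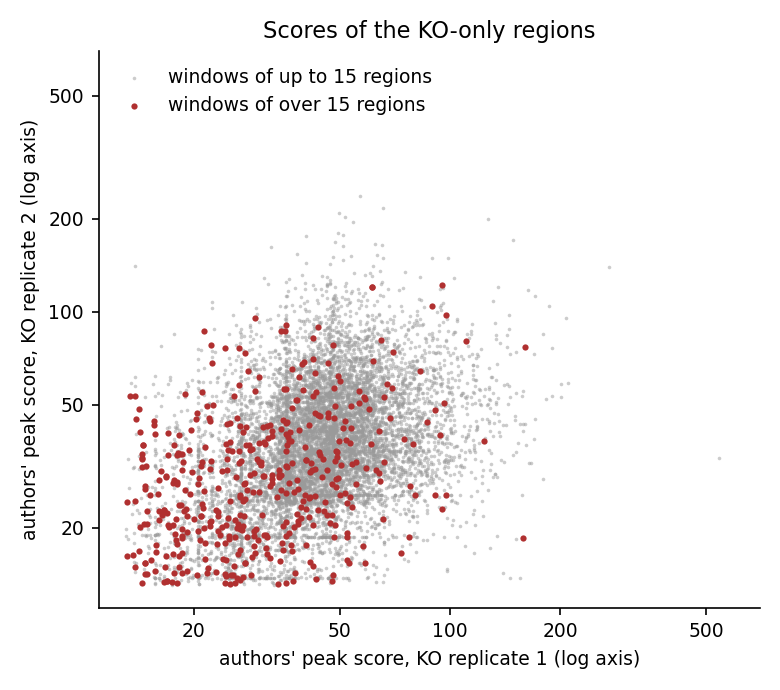
The authors' peak score of each of the 9579 KO-only regions in KO replicate 1 (horizontal, log axis) and KO replicate 2 (vertical, log axis), with the 433 regions in 1 Mb windows of over 15 regions in red. The cloud is broad, with a rho of 0.36, and the red points lie low, at medians of 29.3 and 27.9.

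Most WT-free signal in KO was not shared by both libraries. WT-free peaks numbered 82018 in KO replicate 1 and 108342 in KO replicate 2, and 11.1% and 8.42% of them held at least 200 bp of the other library's peaks. Counted in bases, 9.53% of the WT-free bases of KO replicate 1 lay under peaks of KO replicate 2. Peaks of KO replicate 2 covered 3.35% of all WT-free autosomal bases, so the overlap was 2.85 times this cover. The ratio ran from 2.51 on chromosome 9 to 3.27 on chromosome 4. For WT, 60.6% of the KO-free bases of replicate 1 lay under peaks of replicate 2, which covered 9.19% of the KO-free bases, a ratio of 6.59.

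A higher score in one KO library went with little more overlap in the other. WT-free peaks were split by score into 5 classes of equal size. In KO replicate 1, 11.5% of the lowest class and 12.5% of the highest were shared, with 10.2% to 11.2% in the classes between. In KO replicate 2 the lowest and highest classes had 8.51% and 10.4%, and those between had 7.49% to 8.15%.

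The lists called against IgG show which regions rest on the choice of control. They come from the same immunoprecipitated libraries, so they are no independent support. Of the KO-only regions, 64.3% carried a peak in the IgG list of KO replicate 1, 61.3% in that of KO replicate 2, 54.5% in both and 29.0% in neither. The share of WT-free peaks of only 1 KO library with a peak in that library's own IgG list was 66.2% in KO replicate 1 and 63.5% in KO replicate 2. WT lists against IgG had a peak in 282 KO-only regions (2.94%), of which 48 had one in both. Split in the same way by the lower of their 2 KO scores, the regions' share with a peak in both KO lists against IgG went from 47.9% in the lowest class to 58.7% in the highest.

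KO-only regions lay mostly between genes. The midpoint of 26.5% of them (95% Wilson interval 25.6% to 27.4%, counting error only) was in a protein-coding gene span, that of 11.5% in another annotated gene and that of 62.0% outside annotated genes. Removing WT peaks removes gene bodies, so the fitting background is the WT-free part of the autosomes, of which 34.4% lay in protein-coding spans and 56.3% outside genes. WT-free peaks of only 1 KO library had 30.0% and 29.9% in protein-coding spans. KO regions with a WT peak had 54.8% and WT regions without a KO peak 91.6%. The KO-only regions thus had the smallest share in genes of the sets compared. Exons and strand are not in the gene table used, so no finer place is given.

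**Figure D3:**
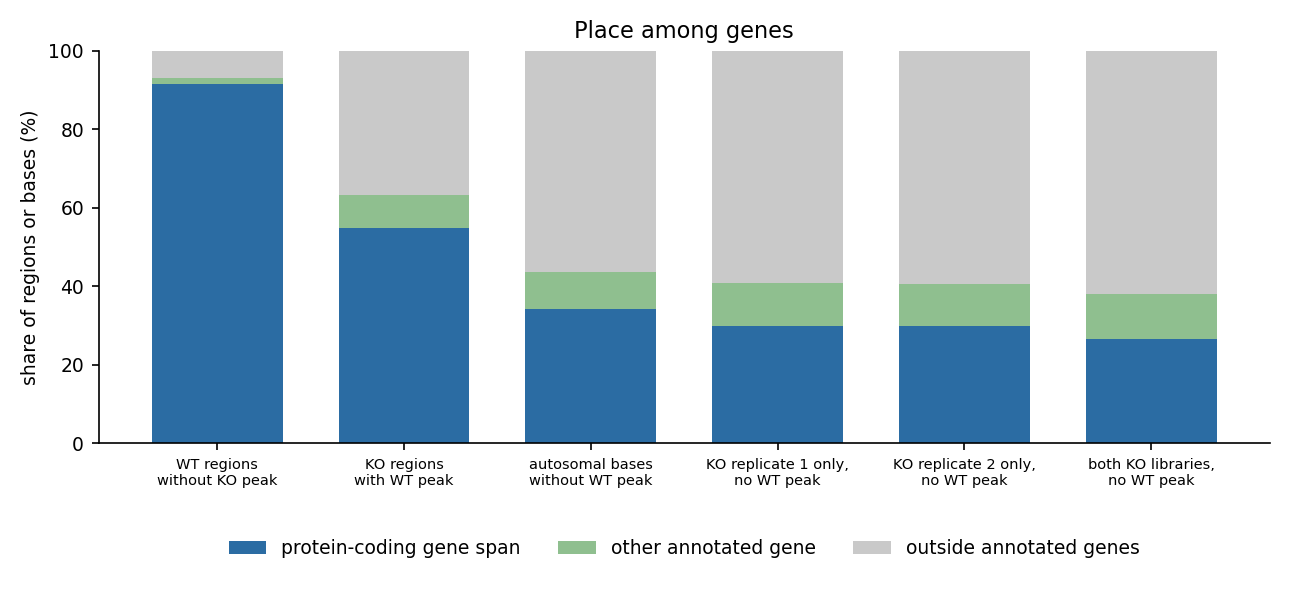
Share (percent) of regions whose midpoint lay in a protein-coding gene span, in another annotated gene or outside annotated genes, for 5 sets of regions or peaks, with the autosomal bases free of WT peaks in the third bar. The protein-coding share is 26.5% in the KO-only regions and 91.6% in the WT regions that lack a KO peak.

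The place in genes and the width of peaks were also taken for each library alone. These values are not independent of the rule, since bases under a peak of the other genotype were left out, and leaving out WT peaks takes gene bodies out of KO. They are a description. For each library, bases under its peaks and under no peak of the other genotype were taken. In WT replicates 1 and 2, 86.8% and 86.5% of such bases lay in protein-coding spans, and in KO replicates 1 and 2 30.9% and 30.9%. The KO values are close to the 34.4% of all WT-free bases. The means were 86.7% ± 0.259 in WT and 30.9% ± 0.0358 in KO (SD, n = 2 each), a difference of -55.8 points with an exact two-sided permutation p of 0.333. Outside annotated genes lay 10.8% and 11.1% of the bases in WT and 58.4% and 58.3% in KO (SD 0.197 and 0.0594), a difference of 47.4 points with an exact permutation p of 0.333. Peaks that touched none of the other genotype were 923 and 888 bp wide on average in WT and 576 and 582 bp in KO, a difference of -326 bp with an exact permutation p of 0.333. These were 3 comparisons, the Benjamini-Hochberg adjusted p is 0.333 for each, and 0.333 is the smallest p that 2 libraries against 2 can give. The bases and peaks were chosen with the true genotypes and not anew for each permutation, so p is not a valid test of genotype. No call rests on these tests.

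KO-only regions were also not far from the mark of WT cells. The median distance to the nearest WT peak was 4586 bp, with quartiles of 1194.5 and 12657 bp. Within 5 kb lay 51.9%, and beyond 50 kb 2.86%. WT-free peaks of only 1 KO library were farther away, with medians of 6804 and 6731 bp and 42.2% and 42.4% within 5 kb. Those peaks hold no WT base over their whole width, while the KO peaks around a KO-only region may reach a WT peak. Wholly WT-free peaks of KO replicates 1 and 2 held 95.9% and 96.3% of the KO-only regions. The distances of these sets are thus not on equal terms. WT peaks lay within 5 kb on both sides of 1513 regions, on 1 side of 3457 and on neither of 4609. The regions with WT peaks on both sides were in protein-coding spans more often, at 38.3%, than those with a WT peak on 1 side (24.5%) or on neither (24.2%).

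**Figure D4:**
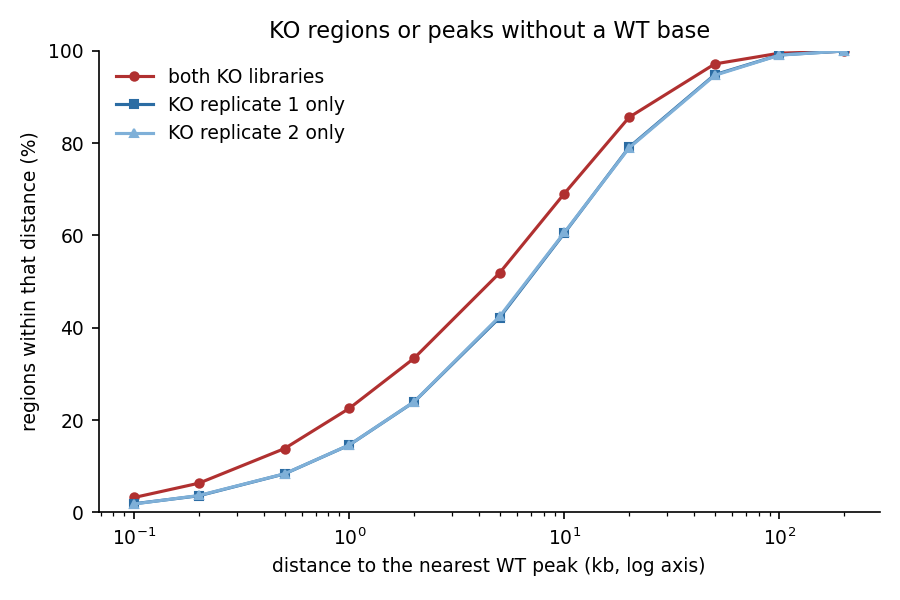
Share of KO regions or peaks without a WT base (percent) that lie within a given distance (kb, log axis) of the nearest WT peak, for KO-only regions and for peaks of KO replicate 1 only or KO replicate 2 only. The KO-only curve lies above the other curves, which coincide: at 5 kb it is at 51.9% against 42.2% and 42.4%. Peaks of 1 library are free of WT bases over their whole width, KO-only regions over the shared part alone.

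The 4 regions farthest from a WT peak, chosen after their values were seen, were on 3 chromosomes. At chr1:25235961-25236413, in Adgrb3, an adhesion receptor of synapses, the nearest WT peak was 280715 bp away and the scores were 38.0 and 49.0. At chr6:44415341-44415869, outside genes, it was 272946 bp away and the scores were 60.1 and 36.7. A further region in Adgrb3 was at chr1:25180237-25180630, with 263814 bp and scores of 18.4 and 22.6. The fourth, at chr5:15496141-15496901 outside genes, had 244779 bp and scores of 15.2 and 21.7, and WT replicate 2 against IgG covered 69.4% of it. Both regions of Adgrb3 and the fourth were covered in both KO lists against IgG, and the one on chromosome 6 in neither.

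Genes that held KO-only regions were long and little marked in WT. Of 20665 autosomal protein-coding genes, 1678 held at least 1 base of such a region, or 8.12%, and 1168 of them held a single region. At the median they were 108 kb long and all genes 17.5 kb, so a longer gene had more room for a region. Their median WT coverage was 2.65% of the span, beside 16.6% for all genes and 32.0% for genes holding a KO region with a WT peak. Only 31 were covered at 50% or more in WT.

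Counted per Mb of span not covered in WT, the regions were scarcest in well-marked genes. Genes under 5% covered in WT held 3.96 per uncovered Mb and those of 5 to 25% held 3.63. Those of 25 to 50% held 1.29 and those of 50% or more held 0.590. WT coverage was used by the rule, so these densities are a description. Across the WT-free part of the autosomes the density of KO-only regions was 4.61 per Mb, from 3.95 on chromosome 14 to 5.72 on chromosome 13. This WT-free part leaves out bases under either WT library, so its density is not on equal terms with those of the classes.

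The genes with the most KO-only regions include long genes of neurons and of a fragile site. Zfp978 and Zfp993, of a zinc finger cluster on chromosome 4, held 16 and 13. Fat3, a giant cadherin, held 9, and Fhit, which spans a common fragile site, held 8. Ctnnd2, a catenin of neurons, Immp2l, a mitochondrial peptidase, and Dlgap2, a scaffold of synapses, also held 8, and Hpse2 and Camta1 held 7. Fat3 was covered in WT over 2.52% and 3.33% and in KO over 5.35% and 7.43%, and Dlgap2 in WT over 1.84% and 2.06% and in KO over 5.51% and 6.33%. Coverage higher in KO follows in part from choosing genes with many KO-only regions. Camta1, chosen the same way, had 4.54% and 4.03% in WT, with 3.08% and 4.03% for KO.

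Among genes of at least 10 kb, the share of the span under KO-only regions was largest in Mepe. Mepe encodes a matrix phosphoglycoprotein of osteocytes and teeth. A single region of 1298 bp at chr5:104330812-104332109 took up 9.77% of the gene, with scores of 151 in KO replicate 1 and 46.0 in KO replicate 2. Mepe had no WT peak, and its KO coverage was 17.8% and 9.77%. No list against IgG had a peak in it, in either genotype, so the call depends on the Input.

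Chst4, a sulfotransferase that makes lymphocyte homing ligands, held 2 regions over 7.46% of its span, with no WT coverage and 11.2% and 10.7% in KO. Of its regions, that at chr8:110029463-110029978 was covered in both KO lists against IgG and the other in neither. Ms4a18, of a family of membrane proteins, held 2 regions over 5.41%, with no WT coverage and 9.38% and 11.6% in KO. The zinc finger genes Zfp979, Zfp660, Zfp985 and Zfp980 had 7.51%, 6.35%, 6.19% and 4.91% of their span under KO-only regions. Against IgG, WT replicate 2 covered the whole Zfp979 region of 231 bp, and WT replicate 1 the whole Zfp660 region of 380 bp. WT replicates 1 and 2 against IgG covered 42.4% and 49.7% of the Zfp979 region of 1595 bp. In these regions the absence of a WT peak depends on the control. Gm2808, Gm21119, Gm5373 and Gm29721, all provisional genes, had 6.07% to 7.86%. Rdh19, a retinol dehydrogenase, Lbhd2 and Cd33, a lectin of myeloid cells, held 1 region each, over 5.09%, 4.92% and 4.90%. Lbhd2 and Cd33 were covered elsewhere in WT, at 17.3% and 7.45% and at 16.5% and 12.4%, so a KO-only region did not mean a gene free of the mark.

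Among genes of marrow lineages, the shares with a KO-only region are read against the 8.12% of all protein-coding genes. Among 26 stromal marker genes, only Lepr, the leptin receptor of marrow niche cells, had any, with 3 regions. Their scores in KO replicates 1 and 2 were 45.9 and 54.2, 24.3 and 13.9, and 57.5 and 52.7, and the first and the last were covered in both KO lists against IgG. Of 21 osteoblast genes, Mepe and Runx2, the master regulator of osteoblasts, had 1 each (9.52% of the genes), and the one in Runx2 lay 577 bp from a WT peak. Of 22 adipocyte genes, Zfp423, a regulator of preadipocytes, had 2. Of 18 chondrocyte genes, Sox5, Hapln1, Matn3 and Acan (22.2%) had 8 together, 5 of them in Sox5, a long gene. None of 25 haematopoietic marker genes had one. Per Mb of span these lists held 2.63, 2.59, 1.96, 3.84 and 0 regions, beside 2.59 over all protein-coding genes.

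Several endothelial genes held KO-only regions. Of 15 marker genes of endothelial cells, 6 held KO-only regions, beside 8.12% of all protein-coding genes. There were 9 in all, or 11.1 per Mb, beside 2.59 over all protein-coding genes and 3.90 over genes under 5% covered in WT. The median length of the 15 was 18.7 kb. Distances to the nearest WT peak ran from 94 bp in Vwf to 20074 bp in Tek. Only 51 bases of the Egfl7 region lay in the gene span. Vwf, the von Willebrand factor, held regions with scores of 57.7 and 31.6 and of 40.2 and 44.9. Tek, the angiopoietin receptor, had scores of 53.1 and 44.6 and of 48.3 and 25.5. Pecam1, a junction molecule, had 47.9 and 43.6 and 44.3 and 32.7. Erg, an endothelial transcription factor, had 81.5 and 69.7, and Kdr, the main VEGF receptor, 53.5 and 49.2. Both regions of Vwf and 1 each of Tek and Pecam1 were covered in both KO lists against IgG, and those of Erg, Kdr and Egfl7 in neither. The mean coverage of the 15 genes was 3.71% in WT and 4.18% in KO, beside 27.0% and 3.38% over all protein-coding genes. Without Egfl7, at a mean of 20.25% in WT and 3.25% in KO, it was 2.53% and 4.25%, and 8 of the 14 other genes were covered more in KO. Cdh5, the cadherin that defines endothelial junctions, held no region and its WT coverage was 1.21% and 1.87%, with 3.79% and 7.07% for KO. The list is small and was not tested, and the part that endothelial cells in the culture play was not tested.

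No KO-only region touched any of 30 splicing factor genes, 91 ribosomal protein genes, 10 H3K36 methyltransferase genes or 9 H3K36 demethylase genes. The mean WT coverage of these lists was 69.2%, 49.9%, 51.0% and 48.3%, and their spans are short, 0.566 to 0.966 Mb in all per list. All protein-coding genes held 2.59 regions per Mb, but genes well covered in WT held fewer. Those of 50% or more held 0.207 per Mb of span and those of 25 to 50% held 0.817. Beside these densities a count of 0 in such short spans is near the background.

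In genes of synapses and neuronal adhesion, regions were many in number and low in density. Of 82 such genes, 61 held 145 KO-only regions, but their median length was 891 kb and the density was 1.89 per Mb. That is below the 2.59 per Mb of all protein-coding genes and the 3.90 per Mb of span of all genes under 5% covered in WT. Dlgap2 held 8 and Macrod2, an enzyme of ADP-ribose metabolism, 6.

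Genes of smell and pheromone receptors, silent in most tissues, are short. Of 1104 olfactory receptor genes, 11 held a region (0.996%), beside 8.12% of all protein-coding genes. The density was 5.18 per Mb, beside 2.59 over all protein-coding genes. These genes have a median length of 0.950 kb, and a region that shares 1 base with a gene counts in full, which raises the density of short genes. In Olfr1377 a region of 618 bp took up 66.9% of the gene, with scores of 47.0 and 60.5, and in Olfr1339 one of 563 bp took up 59.4%, with 37.6 and 37.1. Neither gene had a WT peak, and neither had any peak against IgG. Of 352 vomeronasal receptor genes, 7 held a region (1.99%), at 1.93 per Mb, both below the values of all protein-coding genes.

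The share of zinc finger genes with a KO-only region was near that of all genes. Of 388 genes named Zfp, 33 held 82 KO-only regions, 8.51% of the genes, beside 8.12% of all protein-coding genes, and 6.22 per Mb. KO regions with a WT peak numbered 31.6 per Mb there, beside 4.19 over all protein-coding genes. Of the 82, 29 lay in Zfp978 and Zfp993, which sit in dense windows of chromosome 4 where reads of copies are uncertain, and without this pair the density was 4.26 per Mb. Zfp978 was covered in WT over 20.3% and 18.1% and in KO over 28.3% and 26.0%, and Zfp993 in WT over 8.40% and 9.29% and in KO over 9.63% and 11.5%.

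Other classes of genes are set beside the 4.61 KO-only regions per Mb of all WT-free sequence. Long non-coding RNA genes held 4.94 KO-only regions per Mb and pseudogenes 8.70, per Mb of whole span, of which WT peaks cover a part. The first value is near that of all WT-free sequence. The 391 tRNA genes held none, but they span only 0.0292 Mb in all, and whether 0 is below the background was not tested. Snhg14, the long RNA of the imprinted region that carries the Snord115 and Snord116 small nucleolar RNAs, held 20 regions, the most of any gene outside the protein-coding class by covered bases (11546 bp). WT peaks covered 1.86% and 2.10% of it, KO peaks 4.17% and 5.10%. Of 1286 small nucleolar RNA genes, 9 held a region (0.700%), beside 8.12% of all protein-coding genes. They span 0.151 Mb in all. Their density of 59.5 per Mb is raised, since a region that shares 1 base with a short gene counts in full. Copies of Snord115 and Snord116 are nearly alike in sequence. How the authors' alignment placed reads of such copies is not stated in the sources used. The pseudogenes Vmn2r-ps16, Vmn2r-ps17 and Vmn2r-ps15 of the chromosome 4 cluster held 10, 9 and 7.

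The regions were spread over nearly the whole genome, with a small number of dense places. Of 2414 windows of 1 Mb, 148 held none, the median was 3, and 17 held more than 15. The nearest other KO-only region was 56.2 kb away at the median, and 13.7% had one within 5 kb. KO regions with a WT peak were more clustered, with 21.8% within 5 kb of another of their kind and 8.45% in the fullest 1% of windows, beside 5.57% for the KO-only regions.

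Several dense windows hold gene families with many copies. The fullest window was chr4:147000001-148000000, with 49 KO-only regions, 33 of them in protein-coding spans such as Zfp978, Zfp979, Zfp982, Zfp985 and Rex2. The 2 windows before it, chr4:146000001-147000000 and chr4:145000001-146000000, held 31 and 30. On chromosome 5, chr5:94000001-95000000 and chr5:95000001-96000000 held 38 and 37, among them regions in Pramel38, Pramel41, Pramel44, Pramel47, Pramel48, Pramel49 and Pramel50, which belong to a germline family with many copies. WT peaks covered only 2.43% and 3.02% of those 2 windows. On chromosome 8, chr8:20000001-21000000 held 34, 29 of them outside annotated genes. On chromosome 7, chr7:59000001-60000000, with Snhg14, held 22. On chromosome 13, chr13:12000001-13000000 held 24 regions, 20 of them outside annotated genes. Reads from copies of such families cannot be told apart with certainty, so values in windows with such families are uncertain.

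In the dense windows fewer regions were found again with IgG. Both KO lists against IgG had a peak in 6 of the 49 regions of the fullest window, in 8 of 38 and 11 of 37 on chromosome 5 and in 4 of 34 on chromosome 8. Over the 17 windows of more than 15 regions, 121 of 433 (27.9%) were covered in both, beside 55.8% of the regions elsewhere, and a WT list against IgG had a peak in 8.78%. The same held for other KO peaks there. WT-free peaks of KO replicate 1 only had a peak in its own IgG list in 45.1% inside these windows and 66.5% outside, those of KO replicate 2 only in 48.7% and 63.7%, and KO regions with a WT peak in both lists in 37.1% and 51.4%. Scores were lower in these windows too, with medians of 29.3 and 27.9, beside 44.8 and 36.7 in windows of 8 to 15 regions.

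**Figure D5:**
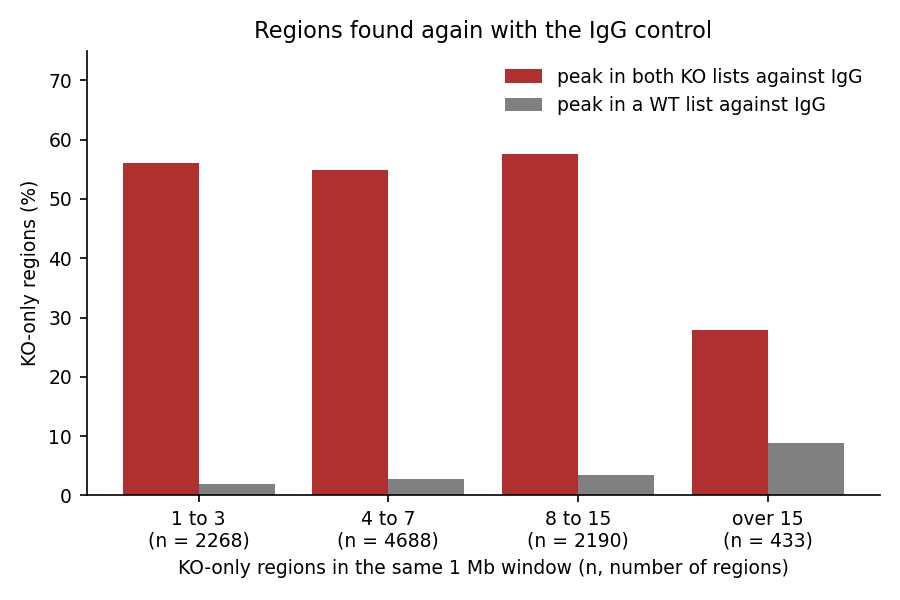
Share of KO-only regions (percent) with a peak in both KO lists against IgG (red) or in at least 1 WT list against IgG (grey), by the number of KO-only regions in the same 1 Mb window, with the number of regions in brackets. The red bars stand between 54.9% and 57.5% in windows of up to 15 regions and at 27.9% in windows of over 15, where the grey bar rises to 8.78%.

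Wide regions were often in these windows. Of the 65 regions of at least 1 kb, 36 lay in the 17 dense windows, and 15.4% were covered in both KO lists against IgG, beside 54.8% of those under 400 bp. The widest, 5842 bp at chr10:58221246-58227087 in LOC100504180, had scores of 43.8 and 53.4 and was wholly covered against IgG in KO replicate 2 but not in KO replicate 1. On chromosome 8, regions of 3858 bp at chr8:55119779-55123636 in Gm51572 and of 2913 bp at chr8:55114236-55117148 in Gm51571 had scores of 25.7 and 14.9 and of 27.5 and 31.2. Close by, regions of 3457 and 2337 bp lay in a single peak of KO replicate 1 with a score of 33.2. A region of 3071 bp at chr13:74528074-74531144 in the pseudogene Gm20590 had scores of 271 and 139 and no peak in any list against IgG. At chr4:147400502-147403028 a WT list against IgG covered 69.4% of a region of 2527 bp, and at chr1:85306531-85308876 in Gm38510 both did, over 83.0% and 52.0% of 2346 bp. WT replicate 2 against IgG also covered 20.9% of the region in Gm51572. In these regions the absence of a WT peak depends on the control.

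The 8 regions with the highest lower score share the one in Gm20590 with the 8 widest, and those in Gm40660 and Banf2 were also over 1 kb, at 1394 and 1060 bp. At chr13:5454260-5455653 in the long non-coding RNA gene Gm40660 the scores were 149 and 170, the highest value of the lower score. Next to Gm20590 came chr5:64419888-64420388, outside genes, with 127 and 200, and chr16:65004872-65005494 in Htr1f, a serotonin receptor gene, with 136 and 120. Regions near Flt4, a VEGF receptor gene, and Rdh9, a retinol dehydrogenase gene, had 164 and 118 and 170 and 112. Regions in Banf2 and Grk5, a kinase of G protein-coupled receptors, had 131 and 108 and 186 and 104. Of these 8 regions, 6 were covered in both KO lists against IgG and those in Gm20590 and Grk5 in neither. WT peaks were close to several: 1 bp away in Htr1f, 66 bp near Flt4, 556 bp near Rdh9 and 1042 bp in Grk5.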

How the data were processed

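H3K36me3 ChIP-seq peaks of 4 libraries, 2 per genotype, were used. The submitters' processing notes name Bowtie2 and the build GRCm38. The authors deposited 8 peak lists, 2 for each library: one with Input and one with IgG as control, per the labels. Peak names start with MACS; its settings are not stated. The deposited score of a peak is the authors' own value on a scale not stated, with 13.01 as its smallest. Scores served for description, ranking and filtering inside a list. Depth is unknown, so a region without a WT peak has no upper limit of signal, and a deeper library gives more peaks. No column of per-sample values was left unmapped.

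Peaks were read as BED intervals and positions printed from 1. WT-free bases were counted between the first and last peak of each autosome (2403 Mb, of which 2078 Mb were WT-free). Genes and promoter windows came from RefSeq GRCm38.p6. The regions, gene lists and tests were chosen with earlier results of these data known. Named were the 8 widest and 8 highest-scored regions, the 5 fullest windows, the 10 genes of at least 10 kb with most span under regions (and the first 10 with symbols that are not provisional), the 10 with most regions, up to 10 starts of each kind, and up to 3 genes per list; others were chosen after their values were seen, and some genes that the rule names are not reported here. Of 30 lists, those not described in the report held 0 to 117 regions each and are given only as counts. Interval steps were tested on simulated chromosomes, where 200 of 200 planted regions were recovered. Tables were made in Python 3.11.15 with pandas 2.3.3 and numpy 2.4.6, tests with scipy 1.17.1 and figures with matplotlib 3.10.9.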

Additional observations from a re-analysis of the deposited data

Results flagged for a closer look

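The X chromosome lies outside the autosomes to which the regions were restricted, and it also carried such signal. By the same rule, 430 of its 546 regions covered in both KO libraries held no base of a WT peak (78.8%, beside 56.3% on the autosomes). Their density was 2.67 per Mb of WT-free sequence, beside 4.61 on the autosomes, and 204 of the 430 (47.4%) had a peak in both KO lists against IgG. On the Y chromosome 8 of 61 regions met the rule. The difference between X and autosomes was not tested.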

How the results depend on the processing

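Peak lists without depth limit these results: a region lacks a WT peak only at the authors' threshold. Of 112 values recomputed under other settings, 60 were labelled as the same and 52 as moved. A difference between genotypes was labelled the same if it kept its sign, as each did. A share was labelled the same inside the 95% Wilson interval of the main value, and a count within a fixed ratio. The difference in width, labelled the same, was -704 bp with peaks at or above the median score. With peaks within 1 kb merged it was -804 bp, beside -326 bp in the main setting. With a minimum of 100 bp, 57.6% of KO regions held no WT base. With 400 bp, 5129 regions (53.7%) were left, of which 3.55% had a WT peak against IgG, over 48 gene start windows. With KO peaks at or above their list's median score, 3154 were left (49.3%), with 25.6% in protein-coding spans, 57.9% covered in both KO lists against IgG, 2.09% with a WT peak against IgG and 25 windows. With no WT peak within 1 kb, 43.6% were left, with 25.03% in protein-coding spans, 2.53% with a WT peak against IgG and 37.9% within 5 kb of a WT peak. With none within 10 kb, 2962 were left (17.4%), with 23.7% in protein-coding spans, 51.7% in both KO lists against IgG, 1.62% with a WT peak against IgG and 22 windows. Counting WT peaks against either control left 54.6%, of which 53.9% lay within 5 kb of one. From the IgG lists alone the rule gave 5943 regions (63.0%), with 28.8% in protein-coding spans, 47.6% within 5 kb and 38 windows, and they shared bases with 5101 (53.3%) of the 9579. Merging peaks within 1 kb gave 50.3% within 5 kb. Without the 17 dense windows, a setting chosen after seeing the data, 55.8% were in both KO lists against IgG. The cause was not tested; stricter settings keep fewer regions by construction.

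Leaving out 1 library gave 11266 to 108342 regions (11266 without WT replicate 1, 11277 without WT replicate 2, 108342 without KO replicate 1 and 82018 without KO replicate 2), since 1 peak list then stands for a genotype. The share without a WT base was 66.2% to 71.4%, in protein-coding spans 28.0% to 29.5%, in both KO lists against IgG 6.00% to 54.7%, with a WT peak against IgG 1.35% to 13.3%, within 5 kb of a WT peak 39.0% to 43.4%, and 86 to 787 windows were covered. Differences between genotypes in bases of their own were -55.4 to -53.5 points in protein-coding spans, 45.4 to 47.0 outside genes, and -364 to -306 bp in width. With the replicate number as a block these were -55.8, 47.4 and -326, equal by arithmetic to those without it. Samples sharing a number deviated with a correlation of -0.0663 over 2414 windows of 1 Mb, so the numbers were not taken as a pairing. Shares that a setting fixes by construction (WT peaks against IgG where those peaks choose the regions, KO peaks against IgG under the IgG lists, and WT peaks within 5 kb under 10 kb) were not recomputed.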
